A study of Homo sapiens with 8 samples.

Results

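SNARE genes of the plasma membrane and the endosomes were examined in SUIT2, an established human pancreatic ductal adenocarcinoma (PDA) cell line that expresses the homeobox transcription factor *EN1*. The set held 10 of the 25702 genes listed in every library: *VAMP7*, *VAMP2*, *VAMP3*, *VAMP4*, *VAMP8*, *YKT6*, *SNAP23*, *SNAP29*, *STX3* and *STX4*. *VAMP7* was chosen from the data, because DESeq2 called it lower in the libraries labelled shEn1 than in those labelled shScr, and the other 9 were chosen as genes of the same family with related places of action. The difference of *VAMP7* between the labels is therefore given as a description, without a test. The 8 RNA-seq libraries comprised 4 labelled shScr, from cells given a scramble shRNA, 2 labelled shEn1 #1 and 2 labelled shEn1 #2, from cells given 1 of 2 shRNA constructs against *EN1*. All libraries came from this 1 cell line, labelled as pancreatic epithelial cells, with the shRNAs carried by a puromycin-selectable lentiviral vector per the study's methods, and the labels gave no age, time point or dose. Nothing in the labels said that replicates were separate cultures, so the p-values measure the spread between these libraries, which may be technical.

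SNARE proteins drive the fusion of a vesicle with its target membrane. An R-SNARE, usually carried by the vesicle (the VAMP proteins and YKT6), zips together with Q-SNAREs of the target membrane into a tight helical bundle, in which a syntaxin supplies the Qa helix and SNAP23 or SNAP29 supplies the Qb and Qc helices. VAMP7, also called tetanus-insensitive VAMP, has a regulatory longin domain and takes part in the fusion of late endosomes and lysosomes with the plasma membrane and in transport to the apical surface of epithelial cells. In polarised epithelia STX3 lies mainly at the apical and STX4 at the basolateral plasma membrane, and SNAP23 pairs with both.

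*VAMP7* lies in the pseudoautosomal region at the ends of the long arms of chromosomes X and Y, where the same sequence is present on both chromosomes. In GENCODE's annotation of GRCh37 it spans chrX:155111008-155173433 and chrY:59214014-59276439, on the plus strand of each and over 62426 bases in both places. The 250 bases before its start are shown because the results turn on this gene, and are taken from RefSeq's GRCh38.p14, where they lie on the plus strand at chrX:155881095-155881344 and chrY:57067615-57067864. The X and Y windows, counted with 50 bases after the start, were the same at 300 of 300 bases. Capitals mark a CCAAT box read on the minus strand, whose match begins 65 bases before the start, and 58.4% of the 250 bases were G or C.
VAMP7 upstream: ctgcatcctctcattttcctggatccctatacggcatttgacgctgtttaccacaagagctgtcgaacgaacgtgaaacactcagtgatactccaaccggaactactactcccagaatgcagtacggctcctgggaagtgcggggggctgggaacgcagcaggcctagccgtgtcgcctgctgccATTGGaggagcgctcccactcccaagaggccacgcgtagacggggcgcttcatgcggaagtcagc
The letters TAATTA, the core that engrailed homeodomains recognise, were searched on both strands from 250 bases before to 50 bases after the start of all 10 genes. They were found in 0 of 10, and in 4.98% of the 27305 promoters of the same table. The letters CCAAT, searched in the same way, were found in *VAMP7* and *SNAP23*, 2 of 10, and in 35.7% of all promoters. No match says only that these letters are not in this window.

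The other genes lie on autosomes, in GRCh37 coordinates. *VAMP2* spans chr17:8062467-8066864 on the minus strand, *VAMP3* chr1:7831356-7841492 on the plus strand and *VAMP4* chr1:171669300-171711214 on the minus strand. *VAMP8* spans chr2:85788685-85809154 and *YKT6* chr7:44240558-44253893, both on the plus strand. *SNAP23* spans chr15:42783431-42837554 and *SNAP29* chr22:21213295-21245502, both on the plus strand. *STX3* spans chr11:59480929-59573355 and *STX4* chr16:31044210-31054296, both on the plus strand. The strand setting of the counting was not given, so reads cannot be told apart from those of a partner on the opposite strand. *YKT6* overlaps *CAMK2B* over 4276 bases, *SNAP29* overlaps *PI4KA* over 411 bases and *STX3* overlaps *OR10V1* over 390 bases. *SNAP23* overlaps an unnamed coding gene over 47962 bases and *LRRC57* over 7537 bases. Unnamed long noncoding genes lie opposite *SNAP23* over 35447 bases, *STX3* over 2398 bases and *SNAP29* over 2009 bases. Other noncoding genes or pseudogenes overlap *VAMP3*, *VAMP8* and *STX3*. *VAMP2* shares 3827 bases with an unnamed coding gene on its own strand, so its counts are uncertain in the same way. These overlaps are of whole gene spans with introns, whereas the exons of *SNAP23*, for example, cover 5852 bases. The overlap of exons was not measured, so the share of reads concerned is not known.

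The libraries held between 33423590 and 37810604 counts, and levels are given as CPM, which are counts relative to the library total after scaling with edgeR's TMM factors. *EN1*, the targeted gene, was at 4.10, 4.50, 4.94 and 2.51 CPM in the libraries labelled shScr 1 to 4, at 5.77 and 5.41 in those labelled shEn1 #1, and at 1.35 and 6.70 in those labelled shEn1 #2. Compared with the mean of the shScr libraries *EN1* was lower only in shEn1 #2 replicate 1, so the targeted gene went against the label of the other 3, and the groups are called by their labels throughout (log2 fold change 0.26, SE 0.43, edgeR's quasi-likelihood test, Benjamini-Hochberg adjusted p = 1.00). The study itself measured *EN1* mRNA in SUIT2 by RT-qPCR and describes the gene as depleted by both constructs. Whether that RT-qPCR used the cultures of these libraries was not stated. The most similar of the 28 pairs of libraries carried different labels, shScr 4 and shEn1 #2 replicate 1. They differed by a root mean square of 0.395 in log2 CPM over the tested genes. The 6 epithelial markers lay between 103.0 and 9573 CPM. Of 7 markers of other cell types, *PTPRC*, *COL1A2* and *CPA1* had 0 counts in all libraries and the highest level was 3.99 CPM, of *COL1A1*. In such bulk RNA a smaller share of cells expressing a gene and less RNA per cell cannot be told apart.

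*VAMP7* was the member whose level differed most between libraries. It was at 16.2, 15.7, 8.52 and 2.38 CPM in the libraries labelled shScr 1 to 4, which held 539, 584, 297 and 89 of its counts. The libraries labelled shEn1 #1 had 0.980 and 1.56 CPM (35 and 53 counts), and those labelled shEn1 #2 had 1.91 and 1.51 CPM (75 and 49 counts). All 4 libraries labelled shEn1 were low, shScr 1 and 2 were high, shScr 3 was intermediate and shScr 4 was close to the low group. The labels did not overlap, but the lowest library labelled shScr was only 1.25-fold above the highest labelled shEn1, shEn1 #2 replicate 1, and their exact 95% Poisson intervals, 1.91 to 2.92 and 1.50 to 2.39 CPM, did overlap. These intervals cover counting error only.

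The mean level of *VAMP7* was 10.7 ± 6.59 CPM (SD, n = 4) under the shScr label and 1.49 ± 0.382 CPM (SD, n = 4) under the shEn1 label, a ratio of 7.21 and a log2 fold change of -2.84 (SE 0.54). This is the contrast that chose the gene. The libraries labelled shScr differed among themselves by 6.83-fold and those labelled shEn1 by 1.94-fold. shScr 3 was 8.69-fold above shEn1 #1 replicate 1, the library of the other label nearest to it over all tested genes. *VAMP7* was the only member whose labels did not overlap, and 0.251% of the 14333 tested genes had all libraries labelled shEn1 below all those labelled shScr. DESeq2 called 0.014% of tested genes, which were *VAMP7* and the gene with the NCBI number 100507676, whereas edgeR called 0% and did not call *VAMP7*.

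*VAMP7* in the libraries labelled shEn1 #2 lay 0.43 above those labelled shEn1 #1 on the log2 scale (SE 0.77). This is a description as well, since the call that chose the gene used the spread among the same 4 libraries. Against the shared shScr libraries the log2 fold change was -3.08 for shEn1 #1 and -2.65 for shEn1 #2, also given as descriptions.

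**Figure D1:**
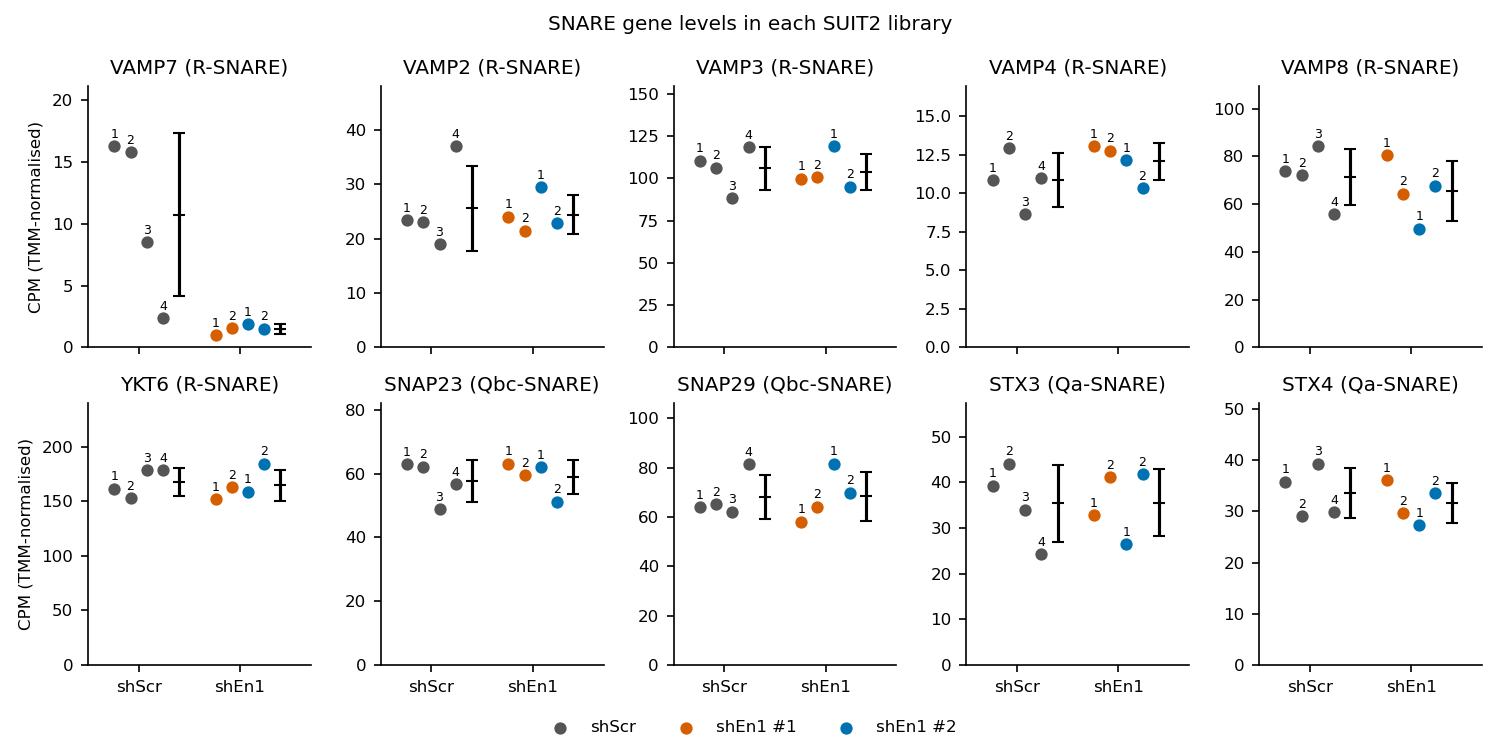
Level of each SNARE gene in CPM (TMM-normalised, linear axes from 0) in the 8 SUIT2 libraries, with 1 point per library, 4 labelled shScr and 4 labelled shEn1, and bars for the mean and SD of each label. Only in the *VAMP7* panel do the labels lie apart, at 2.38 to 16.2 CPM against 0.980 to 1.91 CPM.

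Among the other R-SNAREs, *VAMP2* and *VAMP3* encode the tetanus-sensitive VAMPs of regulated exocytosis and of recycling endosomes. *VAMP2* was at 23.4, 23.004, 18.9 and 36.98 CPM in the libraries labelled shScr 1 to 4, at 24.03 and 21.4 in those labelled shEn1 #1 and at 29.5 and 22.8 in those labelled shEn1 #2. *VAMP3* was at 110.5, 106.4, 88.4 and 118.5 CPM in the shScr libraries, at 99.97 and 100.6 in shEn1 #1 and at 119.0 and 95.2 in shEn1 #2. For both genes shScr 4 and shEn1 #2 replicate 1 were the highest libraries, 1 of each label, and shScr 3 was the lowest, so the labels overlapped. The log2 fold change of the libraries labelled shEn1 against those labelled shScr was -0.066 (SE 0.21) for *VAMP2* and -0.031 (SE 0.12) for *VAMP3*.

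*VAMP4*, which acts between endosomes and the trans-Golgi network, was at 10.9, 12.9, 8.64 and 10.97 CPM in the shScr libraries, at 13.1 and 12.8 in shEn1 #1 and at 12.1 and 10.3 in shEn1 #2. Its lowest library was shScr 3, and the labels overlapped. *VAMP8*, also called endobrevin, which serves late endosomes and the secretory granules of exocrine cells, was at 73.8, 72.1, 84.3 and 55.7 CPM in the shScr libraries, at 80.6 and 64.4 in shEn1 #1 and at 49.8 and 67.7 in shEn1 #2. Here shScr 4 and shEn1 #2 replicate 1 were the lowest libraries. *YKT6*, a lipid-anchored longin SNARE of several transport steps, was at 161.7, 153.0, 178.5 and 178.4 CPM in the shScr libraries, at 151.9 and 163.3 in shEn1 #1 and at 158.8 and 184.5 in shEn1 #2. It was the steadiest of the 10, with a highest level 1.21-fold above its lowest. The log2 fold change was 0.15 (SE 0.17) for *VAMP4*, -0.12 (SE 0.17) for *VAMP8* and -0.028 (SE 0.11) for *YKT6*.

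The Qbc-SNAREs SNAP23 and SNAP29 are the widely expressed relatives of the neuronal SNAP25, the former at the plasma membrane and the latter on endosomes and autophagosomes. *SNAP23* was at 63.1, 62.2, 48.8 and 56.7 CPM in the shScr libraries, at 63.1 and 59.5 in shEn1 #1 and at 62.1 and 51.2 in shEn1 #2. *SNAP29* was at 63.9, 65.2, 62.1 and 81.4 CPM in the shScr libraries, at 58.1 and 64.1 in shEn1 #1 and at 81.5 and 69.7 in shEn1 #2. *SNAP29* was highest, at almost the same level, in shScr 4 and shEn1 #2 replicate 1, and the labels of both genes overlapped. The log2 fold change was 0.032 (SE 0.12) for *SNAP23* and 0.0051 (SE 0.14) for *SNAP29*.

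The Qa-SNAREs of the plasma membrane also overlapped. *STX3* was at 39.2, 44.04, 34.0 and 24.3 CPM in the shScr libraries, at 32.9 and 41.2 in shEn1 #1 and at 26.4 and 41.8 in shEn1 #2, with shScr 4 and shEn1 #2 replicate 1 the lowest. *STX4* was at 35.8, 29.1, 39.3 and 29.9 CPM in the shScr libraries, at 36.0 and 29.6 in shEn1 #1 and at 27.3 and 33.5 in shEn1 #2. Neither label held the high or the low libraries of *STX4* alone. The log2 fold change was 0.0070 (SE 0.21) for *STX3* and -0.084 (SE 0.14) for *STX4*.

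Among the 9 genes other than *VAMP7*, the shEn1 label was the higher for 4 and the lower for 5, by log2 fold changes between -0.12 and 0.15. Their median was -0.028, beside -0.0028 over all tested genes. edgeR's quasi-likelihood test called 0 of the 9 (adjusted p = 1.00 for each with Benjamini-Hochberg adjustment, 0% of tested genes called), and 0 of the 9 had an unadjusted p below 0.05, beside 0.307% of tested genes. DESeq2 also called 0 of the 9. The 95% intervals of all 9 lay between -0.52 and 0.53 on the log2 scale, which leaves out a 2-fold change in either direction for each of them but not smaller ones. On simulated counts with these library sizes edgeR recovered 51.5% of 200 genes changed 2-fold. The 200 were picked at random from all tested genes, so this share does not stand for the 9. Each gene was drawn independently there, without the likeness of libraries across labels seen in the data. The share recovered in these libraries may therefore differ.

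**Figure D2:**
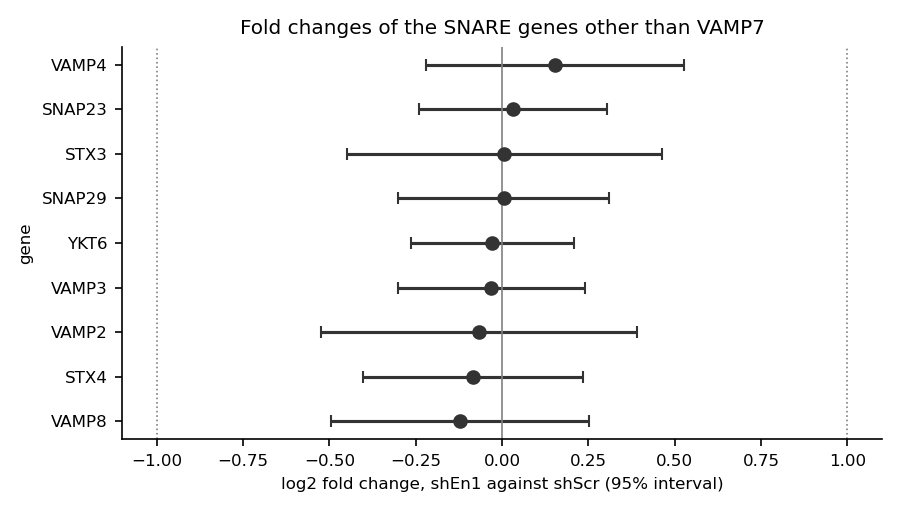
Log2 fold change of the 9 SNARE genes other than *VAMP7* in the 4 libraries labelled shEn1 against the 4 labelled shScr, with 95% intervals from edgeR and dotted lines at a 2-fold change. All 9 intervals cross 0 and lie between -0.52 and 0.53.

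Each construct on its own gave the same count of 0 of the 9 called by edgeR, with 0% of tested genes called in each comparison. Of the 9, 0 had an unadjusted p below 0.05, beside 0.656% of tested genes for shEn1 #1 against shScr, 0.3% for shEn1 #2 against shScr and 1.07% for shEn1 #2 against shEn1 #1. DESeq2 also called 0 of the 9, beside 0.0209% of tested genes for shEn1 #1 against shScr and 0% in the other comparisons. For shEn1 #1 the log2 fold changes against shScr lay between -0.17 for *VAMP2* and 0.25 for *VAMP4*, and for shEn1 #2 between -0.28 for *VAMP8* and 0.15 for *SNAP29*. Both comparisons use the same shScr libraries. Between the constructs, shEn1 #2 differed from shEn1 #1 by log2 values between -0.30 for *VAMP8* and 0.31 for *SNAP29*. With 2 libraries a construct the 95% intervals were wider, between -0.83 and 0.88.

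shScr 4 and shEn1 #2 replicate 1 stood together at one end of the order of libraries for 5 of the 10 genes. They were the 2 highest libraries for *VAMP2*, *VAMP3* and *SNAP29*, as for 18.9% of tested genes, and the 2 lowest for *VAMP8* and *STX3*, as for 19.2% of tested genes. Without this pair the log2 fold changes of the 9 genes lay between -0.12 and 0.15 and 0 were called, and that of *VAMP7* was -3.33.

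Levels were compared between genes as CPM per kilobase of exons, the union of all annotated exons of a gene. *VAMP8* had the highest level at 76.6 ± 13.1 (SD, n = 8), followed by *VAMP3* at 38.4 ± 3.98, *YKT6* at 21.6 ± 1.63 and *SNAP29* at 13.9 ± 1.78. The ranges of these 4 genes over the 8 libraries did not touch, and *SNAP29* did not touch *SNAP23*, at 9.97 ± 0.960. *SNAP23*, *STX4* at 8.03 ± 1.04, *VAMP2* at 7.37 ± 1.67 and *STX3* at 4.85 ± 1.00 each overlapped the next in order. *VAMP7* at 2.33 ± 2.51 and *VAMP4* at 2.30 ± 0.310 were lowest, and their order differed between libraries, since *VAMP7* was above *VAMP4* in 3 of 8, shScr 1 to 3. With the length of the longest transcript, *VAMP8* and *VAMP3* stayed first and second, while *SNAP29* at 16.02 came after *SNAP23* at 23.5 and *STX4* at 20.5, so the order of the middle genes depends on the length used.

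**Figure D3:**
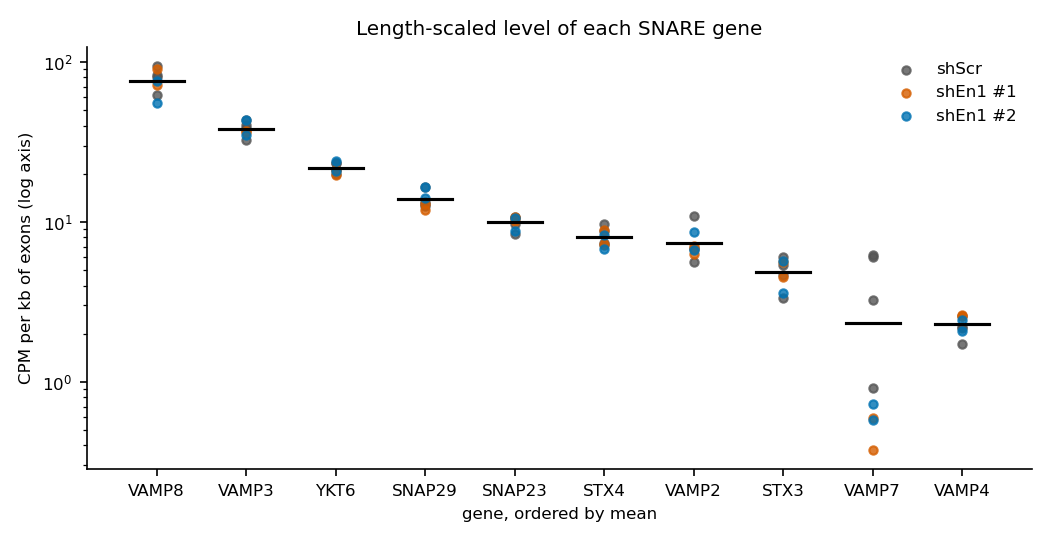
Level of the 10 SNARE genes as CPM per kilobase of exons on a log axis, with 1 point per library (8 libraries, by label), ordered by the mean. *VAMP8* leads at 76.6 and *VAMP7* covers 0.375 to 6.21, the widest range of the 10 on this axis.

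The spread between libraries was wider for *VAMP7* than for each of the other members. The SD of its log2 CPM over the 8 libraries was 1.60, above that of 99.4% of tested genes, and it was 0.95 within the labels, above that of 93.4% of tested genes. The first value includes the contrast that chose the gene. The 9 other genes had SDs between 0.11 for *YKT6* and 0.32 for *STX3*, beside a median of 0.26 over all tested genes. Of 17 other genes listed from the pseudoautosomal regions 8 were tested, all of the short-arm region. The genes listed beside *VAMP7* in the long-arm region, *SPRY3* and *IL9R*, had at most 16 and 5 counts in a library and were not tested. The 8 had a median SD of 0.82, and 4 were above 1.01, the 95th percentile of all tested genes: *ASMTL*, *DHRSX*, *PPP2R3B* and *AKAP17A*. The SDs of the other 4 were 0.33 for *SLC25A6*, 0.41 for *ZBED1*, 0.42 for *CD99* and 0.60 for *PLCXD1*. Several were low in counts, with 8 to 70 in a library for *DHRSX*, 25 to 55 for *ZBED1* and 14 to 186 for *PPP2R3B*, and the part of low counts in these SDs was not tested. *ASMTL* was at 7.14, 0.189, 8.18 and 5.21 CPM in the libraries labelled shScr 1 to 4. It was at 2.35 and 6.002 in shEn1 #1 and at 7.14 and 5.01 in shEn1 #2. Its lowest library was shScr 2, where *VAMP7* was high, and the next was shEn1 #1 replicate 1, the lowest library of *VAMP7*. The labels lay apart in 0 of the 8, beside 0.251% of tested genes with shEn1 lower and 0.167% with shEn1 higher. Their log2 fold changes ranged from -0.33 for *ZBED1* to 0.35 for *PPP2R3B*. In the copy of GRCh37 used here the Y copy of *VAMP7* is masked over all 62426 bases; whether the genome the authors aligned to was masked was not given in the sources used here, and its part in these levels was not tested.

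**Figure D4:**
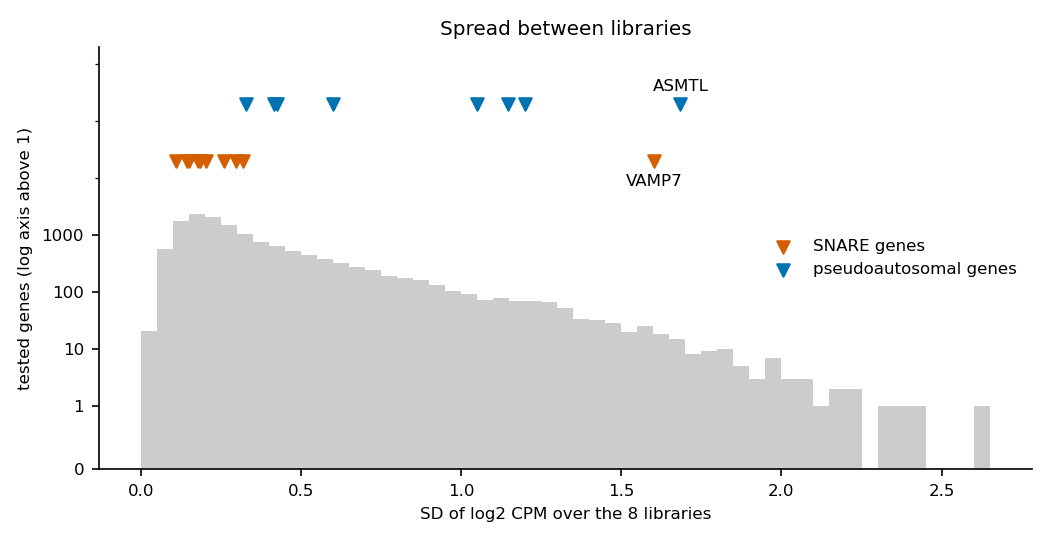
Number of tested genes (log axis above 1) by the SD of log2 CPM over the 8 libraries, in bins, with the SNARE genes and the tested pseudoautosomal genes marked. *VAMP7* lies at 1.60 and the 9 other SNARE genes at 0.32 or below.

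The genes whose pattern over the 8 libraries was most like that of *VAMP7*, by the root mean square difference of log2 CPM centred on each gene's mean, were *DYNLT2* at 0.95, *NRTN* at 1.01, *TSPOAP1-AS1* at 1.03, *MFNG* at 1.05 and *MIR1244-2* at 1.09. A gene with no variation at all would stand at 1.50, so none of the 5 was close to *VAMP7* by this measure. The measure counts the size of the differences between libraries as well as their order, and the order alone was not compared. They are low in counts, with at most 28 in a library for *DYNLT2* and 124 for *MIR1244-2*. Among the members *STX3*, at 1.42, was the most like it, in place 1157 of 14332.

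The wider fusion machinery was described with 5 lists that hold 54 genes, of which 53 were tested. The fitted log2 fold change was above 0 for 29 of them and below 0 for 24, with a median of 0.0071, and edgeR called 0 of the 53, beside 0% of all tested genes. An unadjusted p below 0.05 was found for 0 of the 53, beside 0.307% of all tested genes. Among 26 other SNAREs tested, 14 were higher and 12 lower, from *STX19* at -0.24 (SE 0.52) to *STX11* at 0.47 (SE 0.40), both near 1 to 2 CPM. The 8 SM proteins, which clasp assembling SNAREs, split 4 and 4, from *VPS33A* at -0.11 to *SCFD2* at 0.18. Of the exocyst, which tethers vesicles to the plasma membrane, 3 subunits were higher and 6 lower, from *EXOC6B* at -0.084 to *EXOC8* at 0.22. The log2 fold changes of the 4 genes of SNARE disassembly ran from 0.000089 (SE 0.16) for *NAPA*, at 55.9 CPM in both groups, to 0.12 (SE 0.19) for *NAPG*.

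Of 6 genes listed as direct or indirect partners of VAMP7, 4 were higher and 2 lower, and edgeR called 0, as it called 0% of all tested genes. *RAB32*, a GTPase of lysosome-related organelles, was at 21.3 ± 2.74 CPM (SD, n = 4) under the shScr label and 17.8 ± 2.57 CPM (SD, n = 4) under the shEn1 label, a log2 fold change of -0.26 (SE 0.15). *RAB21*, an endosomal GTPase whose exchange factor binds VAMP7, was at 54.9 ± 7.01 and 60.1 ± 7.04 CPM, a log2 fold change of 0.13 (SE 0.13). The SD of log2 CPM of the 6 listed genes was at most 0.23. That of *VAMP7* was 1.60, which includes the contrast that chose the gene, and 0.95 within the labels. *VAMP7* also had only 35 counts in its lowest library, whereas none of the 6 had fewer than 431.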

How the data were processed

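RNA-seq counts of SUIT2 cells were taken from 8 libraries, grouped by their labels. The authors aligned paired-end reads with HISAT2 and counted them with featureCounts, and deposited whole-number counts per gene without normalization. The labels list the mouse build mm9, whereas the study's methods give hg19 for human samples, and the deposited identifiers are human. Tool versions, annotation, strand and multi-mapping settings were not given in the sources used here. RefSeq names matched 23696 of 25702 identifiers, and all 10 members.

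Low counts were removed by filterByExpr at a minimum count of 10, which left 14333 genes with all 10 members among them. They were scaled by TMM (factors 0.962 to 1.07) and tested with edgeR 4.0.16 (robust quasi-likelihood fit) in R 4.3.3, with Benjamini-Hochberg adjustment over all tested genes and a threshold of 0.05. The main fit pooled both constructs into 1 arm of 4 libraries without a block, and a fit of 3 groups compared the constructs. The prior count of log2 CPM was 2. On simulated counts, with each gene drawn independently and no likeness of libraries across labels, edgeR recovered 85.0% of 200 genes changed 4-fold. Alternatives were DESeq2 1.42.0, limma-voom (limma 3.58.1), other scalings and filters, a replicate block and left-out libraries. No libraries were identical.

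The members and lists were chosen with earlier results of these data known. Named genes were *EN1*, the 10 members, the highest and lowest log2 fold change of each list, any list gene past the threshold and the 5 genes most like *VAMP7*. *ASMTL*, *DHRSX*, *AKAP17A*, *SLC25A6*, *CD99*, *PLCXD1*, *SPRY3* and *IL9R*, and *COL1A1*, *PTPRC*, *COL1A2*, *CPA1* and the gene numbered 100507676 were named after their values were seen.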

Additional observations from a re-analysis of the deposited data

Results flagged for a closer look

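*SNAP29* in the libraries labelled shScr held 1 library far from the other 3: shScr 4 was at 81.4 CPM, whereas the others lay between 62.1 and 65.2 CPM. It was the only 1 of 22 groups of 4 libraries examined in this way to do so, and chance alone gives about 1 in 20. The library labelled shEn1 #2 replicate 1, the most similar to shScr 4 over all genes, was at 81.5 CPM.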

How the results depend on the processing

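The log2 fold change of *VAMP7* was negative under all 19 alternatives, between -3.42 with the replicate block and -2.51 with limma-voom, and between -3.18 and -2.57 with 1 library left out. Its labels did not overlap, so leaving libraries out could not turn its sign, which is no support for the difference. In the replicate block, numbers 3 and 4 hold 1 library each, both labelled shScr. That fit therefore compares only shScr 1 and 2 with the libraries labelled shEn1. edgeR called 0 genes between the labels (44 with an unadjusted p below 0.05) and DESeq2 called 2. edgeR called 1 with the replicate block (271 with an unadjusted p below 0.05) and 1 without shScr 4 and shEn1 #2 replicate 1 (63). It called 1 in the 4 most alike libraries (1512), which are shScr 1 and 2, shEn1 #1 replicate 2 and shEn1 #2 replicate 2. These 4 leave out shScr 3 and 4, the lower shScr libraries of *VAMP7*. With 1 library left out the count of genes called was 0 to 1, the call coming without shScr 4. Each of these calls held *VAMP7*, the gene chosen by this contrast. The 9 other members were called under no alternative, with adjusted p of at least 0.595 and log2 fold changes between -0.25 and 0.25, but 31 of 171 signs turned. With the replicate block *VAMP2* was at 0.066, *YKT6* at 0.062, *SNAP23* at -0.090 and *STX3* at -0.25. Without shScr 4 and shEn1 #2 replicate 1, *VAMP2* was at 0.060, *YKT6* at 0.015, *SNAP23* at -0.0054 and *STX3* at -0.021. In the 4 most alike libraries *VAMP4* was at -0.045, *YKT6* at 0.14, *SNAP23* at -0.18 and *STX3* at -0.0073, and with 3 groups *SNAP29* was at -0.0031. With 1 library left out the ranges were -0.19 to 0.17 for *VAMP2*, -0.11 to 0.027 for *VAMP3*, -0.088 to 0.0083 for *YKT6*, -0.040 to 0.094 for *SNAP23*, -0.094 to 0.10 for *SNAP29*, -0.14 to 0.13 for *STX3* and -0.15 to 0.0011 for *STX4*. The cause was not tested. *EN1* stayed between 0.040 and 0.57. Same-numbered libraries of different labels correlated between -0.38 and 0.32 in their deviations from the mean of their label. The replicate numbers were therefore not taken to pair the libraries. At 35 to 89 counts, *VAMP7* in the low libraries also carries counting error, whose part in these levels was not tested. The exact 95% Poisson intervals of shEn1 #1 replicate 1, 0.683 to 1.36 CPM, and shEn1 #2 replicate 1, 1.50 to 2.39 CPM, did not overlap.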
